A study of Mus musculus with 11 samples.

Results

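The genes described here are 7 that T lymphocytes use: Cd3d, Cd3e and Cd3g, Cd2, Cd52, Lck and Ltb. The 7 genes were chosen with earlier results of these data known, so the counts, ranks and p-values given for them describe and do not test the choice. Within these genes, every array probe whose annotated symbol was one of the names was taken, whatever its signal. That gave 8 of the 45281 probes on the array, for 6 of the 7 genes; Lck was not matched to a probe under that symbol and is not analysed here. A filter on dim probes kept 6 of the 8, from 4 genes (Cd52, Cd3d, Cd3e and Cd3g), and the probes for Cd2 and Ltb did not pass it. That filter can be passed through the group in which a gene is highest, so all 8 probes are described.

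Kidneys of female mice were profiled on Illumina bead arrays, 1 array per mouse, with 4 mice that had both intact alleles of Cldn16 (Cldn16 +/+, WT), 3 with 1 intact allele (Cldn16 +/-, Het) and 4 with none (Cldn16 -/-, KO). Cldn16 encodes claudin-16, a protein that seals and gates tight junctions in the thick ascending limb, where magnesium and calcium are reabsorbed. All mice were 8 weeks old, at postnatal day 58 or 59, received no treatment named in the labels, and came from a mixed background of 129S7/SvEvBrd-Hprtb-m2 and C57BL/6N. The kidney poles had been cut off before freezing, and each sample is whole tissue in which lymphocytes are a small part.

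A T cell recognises peptide on MHC molecules with a receptor that cannot signal by itself. The CD3 chains encoded by Cd3d, Cd3e and Cd3g carry the signal into the cell, and the kinase Lck phosphorylates them. CD2 is an adhesion receptor that binds CD48 in the mouse, CD52 is a short glycoprotein anchored in the membrane of lymphocytes and also of monocytes, and lymphotoxin beta (Ltb) anchors at the cell surface a ligand that shapes lymphoid tissue. A healthy kidney holds few T cells, together with resident macrophages and dendritic cells.

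The 3 CD3 genes lie next to each other on chromosome 9, Cd3g and Cd3d head to head, and are switched on together in T cells. Their promoter windows are shown because the CD3 probes are set against each other below. The windows come from RefSeq (GRCm38.p6) and run from 250 bases before the gene's start to 50 after it, 5′ to 3′ on the gene's own strand. RefSeq windows were found for 5 of the 7 genes. Capitals mark matches, on either strand, to AGGAAG, the core bound by ETS factors, TGTGGT, bound by RUNX factors, CANCTG, the E-box, or TATAAA, the TATA box.
Cd3d, chr9:44981536-44981835, plus strand: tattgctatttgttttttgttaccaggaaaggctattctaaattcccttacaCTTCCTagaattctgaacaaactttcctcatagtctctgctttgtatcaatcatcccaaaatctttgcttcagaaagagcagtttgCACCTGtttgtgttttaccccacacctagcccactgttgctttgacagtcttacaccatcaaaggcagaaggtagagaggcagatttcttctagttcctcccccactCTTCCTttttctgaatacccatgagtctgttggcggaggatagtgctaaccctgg
Cd3e, chr9:45009562-45009861, minus strand: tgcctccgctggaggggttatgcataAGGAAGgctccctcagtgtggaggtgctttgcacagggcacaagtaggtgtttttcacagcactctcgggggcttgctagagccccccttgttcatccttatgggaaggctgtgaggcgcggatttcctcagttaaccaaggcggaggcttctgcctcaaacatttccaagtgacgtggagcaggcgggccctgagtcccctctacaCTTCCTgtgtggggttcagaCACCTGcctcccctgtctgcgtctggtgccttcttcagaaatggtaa
Cd3g, chr9:44980382-44980681, minus strand: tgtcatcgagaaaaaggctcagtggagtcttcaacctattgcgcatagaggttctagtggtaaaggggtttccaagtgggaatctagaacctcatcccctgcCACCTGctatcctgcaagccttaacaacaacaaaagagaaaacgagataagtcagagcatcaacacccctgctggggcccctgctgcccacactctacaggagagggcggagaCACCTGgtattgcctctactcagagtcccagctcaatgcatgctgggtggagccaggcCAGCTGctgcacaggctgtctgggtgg
The Cd3d and Cd3e windows each held 2 matches to the ETS core and 1 to the E-box. The Cd3g window held 3 matches to the E-box and 0 to the ETS core. The RUNX core and the TATA box had 0 matches in these 3 windows. Of 32851 mouse promoter windows, 35.4% held the ETS core, 16.8% the RUNX core, 51.4% the E-box and 13.6% the TATA box, so these letters are common, and a match is not a bound site.

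Signals are given as normalised log2 intensity, on which a difference of 1 is a doubling, and SD is the spread over mice. An array called a probe detected when its detection p was under 0.01. On each array between 41.6% and 43.6% of probes were detected, and pairwise correlations between arrays ran from 0.981 to 0.991. The Cldn16 probe read 9.51 ± 0.23 in WT (SD, n = 4), 9.34 ± 0.06 in Het (n = 3) and 8.99 ± 0.33 in KO kidneys (n = 4), and its KO minus WT difference of -0.53 ± 0.16 (SE) had a limma adjusted p of 0.227. The sources used here do not place this probe inside or outside the deleted stretch, so it does not check the genotypes. The kidney genes Umod (uromodulin of the thick ascending limb), Slc34a1 (a proximal tubule phosphate transporter) and Kap (an androgen-regulated proximal tubule protein) were among the bright signals, at 14.70, 15.05 and 14.78 in WT.

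The T cell label was only thinly borne out by the arrays. Of 18 genes of the T cell receptor and its co-receptors other than the members that had a probe, 13 were detected on 0 arrays, among them Cd4 and Cd8a (the co-receptors), Cd5 and Cd6 (surface regulators of the receptor), Cd247 (the zeta chain) and Ptprc (the CD45 phosphatase of all leukocytes). Of the CD3 probes, Cd3d was detected on 7 of 11 arrays, the brighter Cd3e probe on 5, Cd3g on 2 and the other Cd3e probe on 0. Cd52 was the bright member, and its protein is not restricted to T cells.

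Cd52 was lower in KO than in WT kidneys by both of its probes, with every KO array below every WT array, but neither difference passed the threshold over all tested probes. Probe ILMN_2910934 read 9.02, 9.03, 9.10 and 9.03 in the 4 WT kidneys, 8.36, 8.65 and 8.42 in the 3 Het kidneys, and 7.91, 7.57, 8.61 and 8.08 in the 4 KO kidneys. The WT values lay within 0.1 of one another, all 3 Het values lay below them, and KO 3 stood within the Het range. The KO minus WT difference was -1.003 ± 0.17 (SE), 2.004-fold lower, with a limma adjusted p of 0.0773 and rank 18 of 22856 by p. The exact two-sided permutation p over the 8 arrays was 0.0286, the smallest that 4 against 4 arrays allow. One KO array decided the call: without KO 3 the difference was -1.19 and the adjusted p 0.00660.

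The second Cd52 probe, ILMN_2771380, was dimmer and more scattered. It read 6.95, 6.77, 6.84 and 7.54 in WT, 6.93, 6.70 and 5.84 in Het, and 5.78, 6.24, 6.32 and 4.83 in KO kidneys, where KO 4 was not detected. All KO values were below all WT values, and the Het values overlapped both genotypes. The KO minus WT difference was -1.24 ± 0.32 (SE), with a limma adjusted p of 0.192 and an exact permutation p of 0.0286. Without KO 4 it was -0.92, and without background correction -0.77.

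Cd3d, the CD3 delta chain, was the CD3 gene in which every KO array lay below every WT array. Probe ILMN_2697415 read 5.73, 5.56, 5.35 and 5.62 in WT, 5.26, 5.12 and 5.08 in Het, and 4.95, 5.14, 5.04 and 4.93 in KO kidneys. The WT values stood above all Het and KO values, and Het and KO overlapped. KO minus WT was -0.55 ± 0.11 (SE), with a limma adjusted p of 0.140, rank 36 of 22856 by p, and an exact permutation p of 0.0286. These signals sit close to background, with 1 of 4 KO arrays detected against 4 of 4 WT arrays, and without background correction the difference was -0.26.

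**Figure D1:**
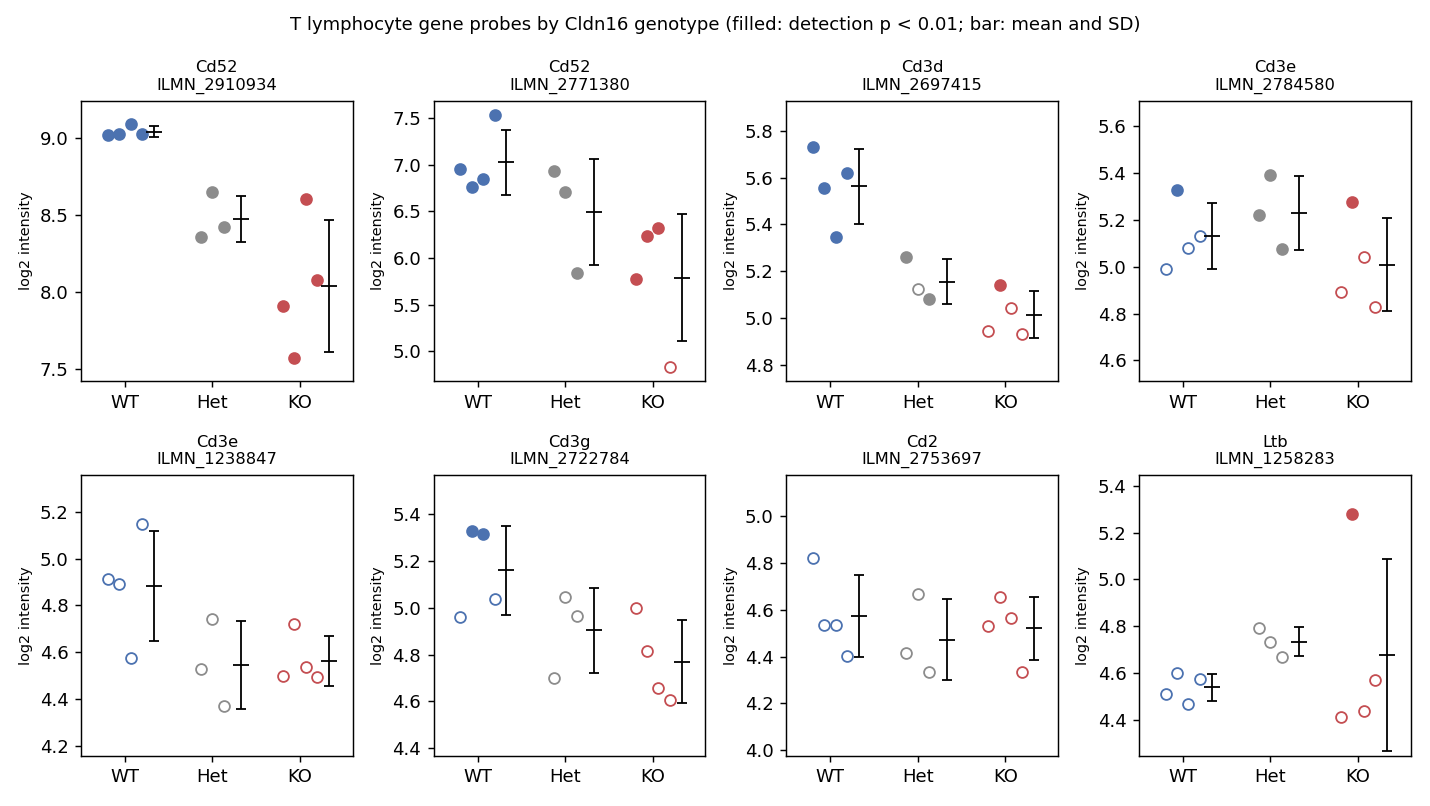
Log2 intensity (vertical axis) of the 8 probes in each kidney by Cldn16 genotype (horizontal axis), with 4 WT, 3 Het and 4 KO arrays; filled points are detected arrays (detection p under 0.01), and the bar beside each group is its mean and SD. Both Cd52 probes and Cd3d have every KO point below every WT point, while Cd2 and the dimmer Cd3e probe have no filled point. Each panel has its own vertical scale.

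The other CD3 chains moved less, and their groups overlapped. For Cd3e, the epsilon chain, probe ILMN_2784580 read 4.99, 5.33, 5.08 and 5.13 in WT, 5.22, 5.39 and 5.08 in Het, and 4.89, 5.28, 5.04 and 4.83 in KO kidneys. Its 3 genotypes covered nearly the same range, and KO minus WT was -0.12 ± 0.13 (SE, limma adjusted p = 0.710). That difference became 0.03 when the 3 arrays with the highest adipose markers were dropped.

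The dimmer Cd3e probe, ILMN_1238847, read 4.91, 4.89, 4.58 and 5.15 in WT, 4.53, 4.74 and 4.37 in Het, and 4.50, 4.72, 4.54 and 4.49 in KO kidneys. It was detected on 0 arrays at 0.01 and passed the filter through 3 WT arrays with a detection p under 0.05. Its KO minus WT difference was -0.32 ± 0.13 (SE, limma adjusted p = 0.333), so the 2 probes of this gene differ in size, and all 3 genotypes are below background by this probe.

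For Cd3g, the gamma chain, probe ILMN_2722784 read 4.96, 5.33, 5.32 and 5.04 in WT, 4.70, 5.05 and 4.96 in Het, and 4.9997, 4.82, 4.66 and 4.61 in KO kidneys. It was detected on 2 of the 4 WT arrays and on 0 Het and 0 KO arrays. KO minus WT was -0.39 ± 0.13 (SE, limma adjusted p = 0.259, exact permutation p = 0.0571). Since KO and Het are below background, the WT mean was set against the dimmest detectable signal, which gave 1.02-fold for KO and 1.04-fold for Het. With only 2 of the 4 WT arrays detected, the WT mean is itself uncertain. These values are therefore not firm bounds, and no fold is read for Cd3g.

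Cd2 and Ltb gave no usable signal for a comparison. Cd2 (ILMN_2753697) was detected on 0 of 11 arrays and read between 4.33 and 4.82. Ltb (ILMN_1258283) was detected on 1 array, KO 2, at 5.28, and its other 10 values lay between 4.41 and 4.79. All 3 Het values of Ltb, 4.67 to 4.79, stood above the 4 WT values, 4.47 to 4.60, with every one of these 7 arrays below background.

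Across the 8 probes, of genes chosen with earlier results of these data known, 7 were lower in KO than in WT, against 50.5% of all 45281 probes. In 3 of the 8, both Cd52 probes and Cd3d, every KO array was below every WT array, a pattern that 2.62% of all probes showed; those 3 probes cover 2 genes. Of the 6 tested probes, 5 were lower at an unadjusted p under 0.05 (6.17% of tested probes), but 1 of these, Cd3e ILMN_1238847, was tested only through WT arrays, which favours a lower KO value. Without it the count was 4 of 5, and nothing is read from either count. By limma, 0 of 6 passed the adjusted threshold, which 9 of 22856 tested probes (0.0394%) did. The median KO minus WT difference over the 6 genes, 1 probe each, was -0.26, beside 0.00 over all probes, and it was -0.12 without background correction. Fewer cells of a type and less RNA per cell cannot be told apart in whole kidney.

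**Figure D2:**
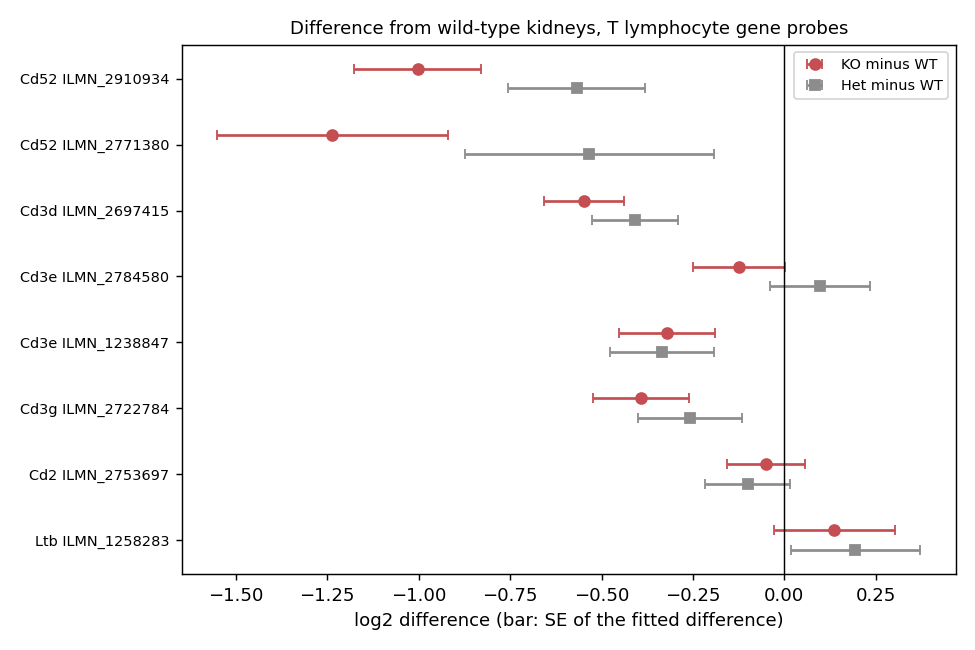
KO minus WT (circles) and Het minus WT (squares) difference in log2 intensity (horizontal axis) for each of the 8 probes, with bars of 1 SE from the model over 11 arrays. KO minus WT runs from -1.24 for the second Cd52 probe to 0.14 for Ltb.

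Loss of 1 allele gave smaller differences of the same sign for Cd52 and Cd3d, none past the threshold. Het minus WT was -0.57 ± 0.19 for Cd52 ILMN_2910934 (SE, limma adjusted p = 0.663, exact permutation p = 0.0286), with all 3 Het arrays below all 4 WT arrays. For Cd3d it was -0.41 ± 0.12 (SE, limma adjusted p = 0.661, exact permutation p = 0.0571), again without overlap. The second Cd52 probe overlapped, at -0.53 ± 0.34 (SE), and the brighter Cd3e probe was 0.10 ± 0.14 (SE). In Het against WT 6 of 8 probes were lower (51.4% of all probes), 2 of 8 did not overlap and were lower (3.24% of all probes), 3 of 6 had an unadjusted p under 0.05 and were lower (3.06%; 2 of 5 without Cd3e ILMN_1238847), and 0 of 6 passed the adjusted threshold (0% of tested probes).

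KO and Het kidneys, which differ by the remaining allele, overlapped in all 8 probes. Cd52 ILMN_2910934 differed by -0.44 ± 0.19 (SE, limma adjusted p = 0.889) and Cd3d by -0.14 ± 0.12 (SE, limma adjusted p = 0.939). Of the 8 probes, 6 were lower in KO than in Het (49.6% of all probes) and 0 did not overlap and were lower (2.83%). Of the 6 tested, 1 was lower at an unadjusted p under 0.05 (2.65%), and 0 passed the adjusted threshold (0%). These comparisons share arrays with the previous ones.

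The slope per lost allele is fixed by the KO and WT means here, because the groups of 4, 3 and 4 mice are symmetric, so its size adds nothing to KO minus WT and only its error differs. For Cd52 ILMN_2910934 it was -0.50 ± 0.08 per allele (SE), with a limma adjusted p of 0.0593 and rank 11 of 22856 by p. Its exact permutation p over 11550 arrangements of the genotype labels was 0.000519. With an offset of 50 in place of 16, with array weights, or without KO 3, the adjusted p was 0.0493, 0.0463 and 0.00436. The slope was -0.62 ± 0.15 for the second Cd52 probe (SE, limma adjusted p = 0.177) and -0.27 ± 0.06 for Cd3d (SE, limma adjusted p = 0.134). Of the 6 tested probes, 5 had a negative slope at an unadjusted p under 0.05 (6.28% of tested probes; 4 of 5 without Cd3e ILMN_1238847, which the filter kept through WT arrays alone) and 0 passed the adjusted threshold (0.0175%). In 0 of 8 was every KO array below every Het array and every Het array below every WT array, which 0.0221% of all probes showed. Het kidneys differed from the value midway between WT and KO by -0.18 to 0.16, with a limma adjusted p of 0.999 for all 6 probes.

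The arrays lay on 2 slides that both held all 3 genotypes. KO minus WT for Cd52 ILMN_2910934 was -1.29 on slide 1 and -0.72 on slide 2, for the second Cd52 probe -0.85 and -1.62, and for Cd3d -0.60 and -0.50. Each of the 6 tested probes was lower in KO on both slides. With slide as a block the limma adjusted p for Cd52 ILMN_2910934 was 0.0692, and with postnatal day in the model 0.120.

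**Figure D3:**
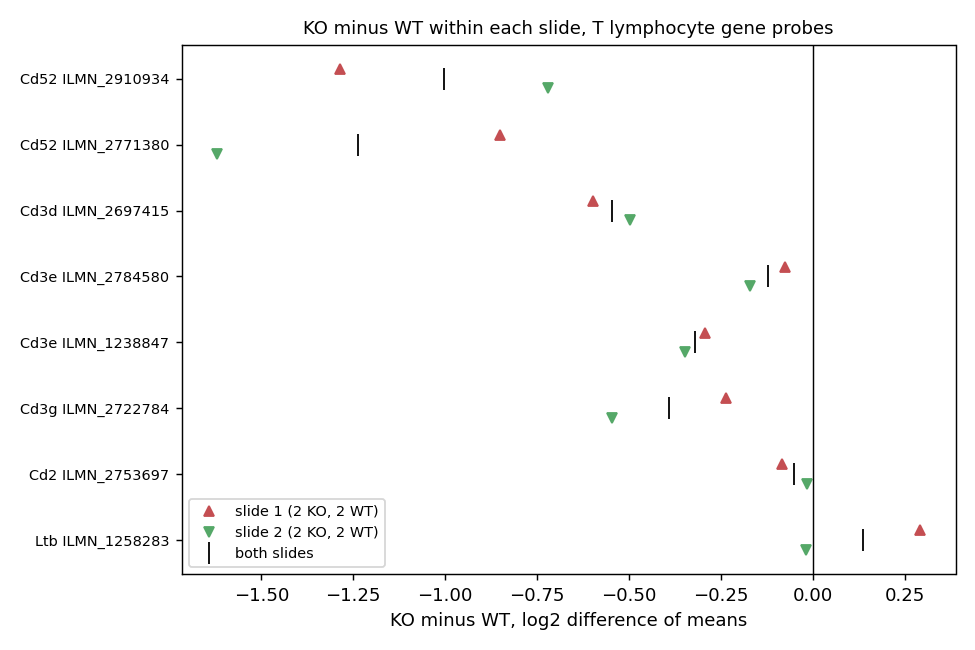
KO minus WT difference in log2 intensity (horizontal axis) of the 8 probes on slide 1 (upward triangles, 2 KO and 2 WT arrays) and slide 2 (downward triangles, 2 KO and 2 WT arrays), with a vertical tick for both slides together. Both slides lie below 0 for the Cd52, Cd3 and Cd2 probes, and Ltb lies at 0.29 and -0.02.

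The 6 tested probes were set against each other over the 11 arrays, whose genotype differences they share. Among the 15 pairs, Pearson's r ran from 0.18 to 0.81, and 2 pairs passed a permutation test of r with Benjamini-Hochberg adjustment over the pairs. These were Cd3d with the dimmer Cd3e probe, which is below background in every genotype and was tested only through WT arrays (r = 0.81, Spearman correlation 0.82, permutation p = 0.00257 and 0.00313, adjusted 0.0223 and 0.0235) and Cd3d with the second Cd52 probe (r = 0.79, Spearman correlation 0.91, permutation p = 0.00297 and 0.000250, adjusted 0.0223 and 0.00375). A further pair, the second Cd52 probe with that Cd3e probe, passed by the Spearman correlation alone (0.76, adjusted permutation p = 0.0415, against 0.0550 by r = 0.71). Nothing is read from the pairs that hold that Cd3e probe. For the 2 pairs that passed by r, leaving out the 2 arrays farthest from the median gave r of 0.66 and 0.75. With each genotype centred on its mean, r for these pairs was 0.66 and 0.54, and over the 15 pairs it ran from -0.58 to 0.66, with 8 above 0. On the 6 arrays of slide 1 r was 0.81 and 0.75, and on the 5 of slide 2 it was 0.87 and 0.92. The 2 Cd52 probes had r = 0.67 with each other (adjusted permutation p = 0.0722), and r = 0.05 with each genotype centred, so they did not track each other within genotypes.

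Other T cell genes gave no call of their own. None of the 4 tested receptor and co-receptor genes, 13 signalling genes, 14 homing, cytokine receptor and transcription genes, and 5 partners of Ltb and Cd2 passed the adjusted threshold in any of the 4 tests, with 0 higher and 0 lower in each. At an unadjusted p under 0.05 in KO against WT, 1 of 4, 3 of 13, 1 of 14 and 0 of 5 were lower, and 0 were higher, beside 6.17% of tested probes that were lower. The median KO minus WT differences of these lists were 0.03, -0.24, -0.10 and 0.04. With the mean of all tested probes of a gene, added once values were known, the receptor median turned to -0.14, and the others were -0.24, -0.12 and 0.09. The mean level of the 13 signalling genes, minus the WT mean, ran from -0.26 to -0.06 in KO, from -0.31 to -0.16 in Het and from -0.05 to 0.03 in WT kidneys. Neither KO nor Het overlapped WT. Below 0 were 13 of 13 in Het minus WT (51.4% of all probes) and 8 of 13 in KO minus WT (50.5%). Lat, 1 of the 13, had a detection p under 0.05 on 4 WT, 1 Het and 1 KO array. It passed the filter only with WT arrays, which favours lower Het and KO values, so nothing is read from these counts.

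Among receptor genes, Cd27, a costimulatory receptor, went from 5.88 ± 0.13 in WT to 5.33 ± 0.29 in KO kidneys (SD, n = 4 each), and all KO arrays were below all WT arrays (limma adjusted p = 0.192). Cd69, an early activation marker, differed by 0.13, and Thy1, a glycoprotein also made by neurons and fibroblasts, by -0.06 (limma adjusted p = 0.665 and 0.884). The brightest probe annotated to Cd8b1, the CD8 beta chain, read 12.15 in WT and 12.40 in KO kidneys, while a second probe read 6.45 and 5.75. Cd8a, with which CD8 beta pairs, was detected on 0 arrays, and whether the bright probe measures Cd8b1 was not tested. Its probes thus went in opposite directions, and the mean of its tested probes differed by -0.23 where the brightest differed by 0.25.

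In the signalling list, every KO array lay below every WT array for 3 of the 20 genes on the array (2.62% of all probes), and these 3 are among the 4 named for the size of their differences; none passed the threshold. Grap2, an adaptor that joins LAT to SLP-76, differed by -0.52 ± 0.14 (SE, limma adjusted p = 0.195). Prkcq, protein kinase C theta, differed by -0.40 ± 0.14 (SE, limma adjusted p = 0.262), and Vav1, a signalling protein of blood cells, by -0.32 ± 0.11 (SE, limma adjusted p = 0.257). Lat, the scaffold that the receptor's kinases phosphorylate, differed by -0.32 with overlap and was detected on 4 arrays.

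In the homing and transcription list, Gimap6, a GTPase of lymphocytes, was 8.91 ± 0.09 in WT and 8.56 ± 0.21 in KO kidneys (SD, n = 4 each), with no overlap and a limma adjusted p of 0.293. Of all probes, 2.62% had every KO array below every WT array. Cxcr6, a chemokine receptor of effector T cells, differed by -0.30, Gimap7 by -0.22 and Bcl11b, a transcription factor of the T lineage, by -0.17, all with overlap. Bcl11b differed by 0.33 on slide 2 and by -0.67 on slide 1.

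Of the partners of Ltb and Cd2, the receptor Ltbr differed by -0.03 between KO and WT kidneys and Tnfrsf1a, the tumour necrosis factor receptor, by 0.04. Map3k14, the kinase downstream of Ltbr, differed by 0.18 and Nfkb2, its substrate, by 0.11 (limma adjusted p from 0.475 to 0.965 for these 4). Cd48, the mouse ligand of CD2, and Lta and Tnf were detected on 0 arrays.

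Markers of other cells are set beside the members here. No gene in these lists passed the adjusted threshold, and their part in the Cd52 and Cd3d differences was not tested. The summed level of a list is given as the mean over its tested genes minus the WT mean. For 5 cytotoxic and NK cell genes it ran from -0.63 to -0.41 in KO, from -0.44 to 0.01 in Het and from -0.20 to 0.20 in WT kidneys. Of the 5, 3 were lower in KO than in WT at an unadjusted p under 0.05, beside 6.17% of tested probes. Ccl5, a chemokine of activated T and NK cells, read 7.17 ± 0.37 in WT and 6.23 ± 0.35 in KO kidneys (SD, n = 4 each), with a limma adjusted p of 0.181. It did not overlap, with KO lower, as for 2.62% of all probes. Prf1, perforin, differed by -0.47 and Klrd1, an NK receptor chain, by -0.63, with overlap. A second, dimmer Prf1 probe went the other way, at 5.17 in WT and 5.38 in KO kidneys (limma adjusted p = 0.468). Of the 12 genes of that list on the array 7, among them Gzmb, Ncr1 and Klrb1c, were detected on 0 arrays.

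For 14 macrophage and dendritic cell genes the summed level ran from -0.42 to -0.01 in KO, from -0.26 to 0.02 in Het and from -0.07 to 0.12 in WT kidneys. Of these 14, 13 were below 0 in KO minus WT (50.5% of all probes), 3 at an unadjusted p under 0.05 (6.17% of tested probes). The lysozyme genes Lyz1 and Lyz2, near-identical copies whose probes may not separate them, differed by -0.59 and -0.53 (limma adjusted p = 0.198 for both), whereas Csf1r, the receptor for the macrophage growth factor, differed by 0.25 (limma adjusted p = 0.552). Itgam, Fcgr1, Itgax, Cd163, Flt3 and Ccr2 were detected on 0 arrays. Monocytes and macrophages can also carry Cd52.

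For 5 B cell and plasma cell genes the summed level ran from -0.02 to 0.15 in KO and from -0.18 to 0.20 in WT kidneys. Of the 5, 2 were higher at an unadjusted p under 0.05, a share that was not counted over all tested probes, so nothing is read from it. Cd79b, a chain of the B cell receptor, differed by 0.45, Fcmr, the IgM receptor, by -0.51, and Jchain by 0.05 (limma adjusted p = 0.317, 0.425 and 0.891). Ms4a1 and Pax5, which define B cells, were detected on 0 arrays. For 4 neutrophil genes it ran from -0.40 to -0.11 in KO and from -0.21 to 0.18 in WT kidneys. The calcium-binding S100a8 differed by -0.73, S100a9 by -0.43 and Ltf, lactoferrin, by -0.08 (limma adjusted p = 0.195, 0.416 and 0.844), and Mpo and Elane were detected on 0 arrays.

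For 8 red cell and platelet genes the summed level ran from -1.14 to 0.02 in KO, from -0.59 to 0.03 in Het and from -0.49 to 0.45 in WT kidneys, lowest in KO 2 and KO 3. Of the 8, 7 were below 0 in KO minus WT (50.5% of all probes), 3 at an unadjusted p under 0.05 (6.17% of tested probes). The globin genes Hba-a1, Hbb-bt and Hbb-bs, of which the Hbb pair are near-identical copies, differed by -0.71, -0.75 and -0.86 in KO minus WT (limma adjusted p = 0.477, 0.378 and 0.276). KO 2, KO 3 and Het 2, the 3 arrays lowest in haemoglobin markers, were dropped in an alternative chosen after the data had been seen. The limma adjusted p of Cd52 ILMN_2910934 was then 0.0433 in KO against WT and 0.0146 for the slope. Leaving out KO 3 alone gave 0.00660 and 0.00436, so haemoglobin content and KO 3 itself cannot be told apart here.

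For 11 adipose genes the summed level ran from -0.44 to 1.40 in KO, from -0.73 to 1.41 in Het and from -0.53 to 0.21 in WT kidneys, with KO 1, KO 4 and Het 3 above 1. Of the 11, 9 were above 0 in KO minus WT, with a median of 0.33, where 50.5% of all probes were below 0. At an unadjusted p under 0.05, 2 were higher, a share that was not counted over all tested probes, so nothing is read from it. These 2, named after their values were seen, were Ucp1, the uncoupling protein of brown fat, at 1.62, and Cidea, a lipid droplet protein, at 1.66 (limma adjusted p = 0.280 and 0.386). Among the 3 brightest, Adipoq, the adipocyte hormone adiponectin, differed by 0.51, Cox7a1 by -0.49 and Cox8b by -0.02 in KO minus WT (limma adjusted p = 0.813, 0.461 and 0.992); both Cox genes encode respiratory chain subunits of muscle and brown fat. Fabp4, Retn and Elovl3 were detected on 0 arrays. When those 3 arrays were dropped, also a choice made after the data had been seen, 0 of 6 member probes passed the adjusted threshold, as with all arrays. KO minus WT was then -0.96 for Cd52 ILMN_2910934, -0.75 for the second Cd52 probe, -0.47 for Cd3d and -0.43 for Cd3g. For the brighter Cd3e probe it was 0.03, and for the dimmer -0.26. For 4 genes of lymph node stroma and lymphatic vessels, the summed level ran from -0.48 to -0.07 in KO and from -0.18 to 0.16 in WT kidneys. The chemokines Ccl19 and Ccl21a, which guide T cells, differed by -0.51 and -0.29, and Prox1, a regulator of lymphatic endothelium, by -0.21 (limma adjusted p = 0.288, 0.461 and 0.568). Madcam1, Glycam1, Cxcl13 and Lyve1 were detected on 0 arrays. For 9 kidney genes it ran from 0.14 to 0.39 in KO and from -0.04 to 0.06 in WT kidneys. Of the 9, 7 were above 0 in KO minus WT, where 50.5% of all probes were below 0. At an unadjusted p under 0.05, 3 were higher, also not counted over all tested probes, so nothing is read from that share. These 3, named after their values were seen, were Aqp2, the water channel of the collecting duct, at 1.02, Slc12a3, the sodium chloride cotransporter, at 0.42, and Aqp1, a water channel of the proximal tubule, at 0.26 (limma adjusted p = 0.206, 0.272 and 0.333). The 3 brightest, Umod, Slc34a1 and Kap, differed by -0.11, 0.10 and -0.06 (limma adjusted p = 0.672, 0.683 and 0.845), and Slc34a1 by -0.0188 with a median shift per array.

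**Figure D4:**
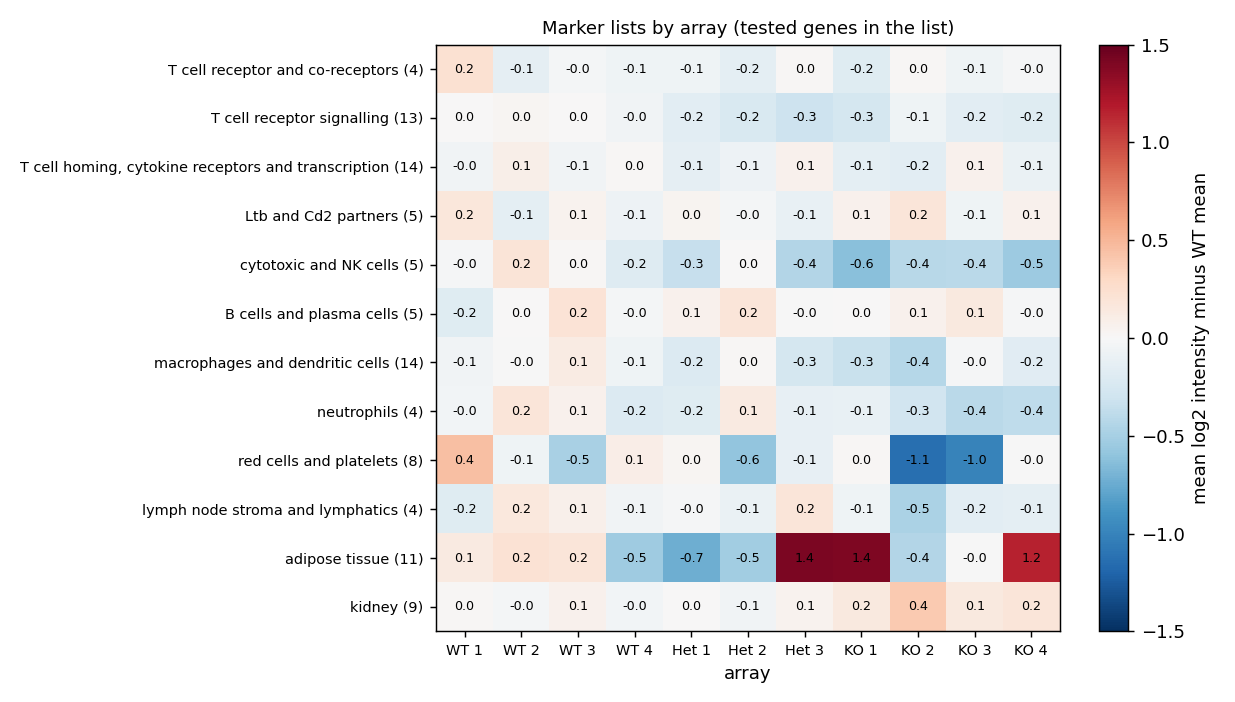
Mean log2 intensity of each marker list's tested genes minus its WT mean (colour and printed value), by list (vertical axis, number of genes in brackets) and array (horizontal axis: 4 WT, 3 Het, 4 KO). The 4 KO arrays lie between -0.63 and -0.41 for the cytotoxic and NK cell list, and KO 1, KO 4 and Het 3 lie above 1 for adipose tissue.

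The genes whose pattern over the 11 arrays was most like the mean of the 4 tested members, 1 probe each, were Aif1, Gsdmd, Scnm1, Pisd, Gm773, Gabra3, Ccl5, H2-T10, Slc11a1 and Abhd10. Their r ran from 0.957 to 0.901, where the median over 19259 probes was -0.02, and the r values share the genotype differences and the arrays. Aif1, a calcium-binding protein of macrophages, came nearest, at 6.11 in WT, 5.90 in Het and 5.58 in KO kidneys. With each genotype centred on its mean r was 0.80 for Aif1, 0.87 for Ccl5 and 0.34 for H2-T10. Of the 10, Gm773 and Abhd10 passed the threshold in KO against WT (limma adjusted p = 0.0409 for both), beside 9 of 22856 tested probes (0.0394%). The 10 were picked for following a mean that was lower in KO than in WT. That choice favours lower KO values, so nothing is read from this count. Abhd10 fell by 0.75 on the log2 scale. Gm773 was detected on 4 of 4 WT and 0 of 4 KO arrays, so its fold is a bound, at least 1.70-fold lower in KO. The Gm773 call was lost in 24 and the Abhd10 call in 20 of the 29 alternatives.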

How the data were processed

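Kidney RNA from 11 mice was hybridised to 1 Illumina bead array each. Per the file headers, the authors deposited a linear intensity and a detection p-value for each probe and array. BeadStudio is named in the submitters' processing notes, with no version, and the sources used here do not give its background treatment. The authors' second deposited table holds processed intensity values whose median distance from a quantile normalization of the first was 0.00392 intensity units, so its scale was found from the values. Nothing in it was used beyond an alternative.

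Intensities were corrected with limma's normexp method from the detection p-values (offset 16) and quantile normalized before log2 values were taken (limma 3.58.1, R 4.3.3, statmod 1.5.0). Of 45281 probes, the 22856 tested had 3 or more arrays at a detection p below 0.05. A single model with 1 mean for each genotype was fitted to all 11 arrays (lmFit, eBayes), with two-sided p-values, Benjamini-Hochberg adjustment across the tested probes and a threshold of 0.05; the slope per lost allele was a second model. Exact permutation tests took the arrays of the groups compared. Changes of dim probes are understated by the offset, and the number of arrays limits the precision. Scripts were tested on simulated data.

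Probes were named through the platform annotation: 34885 had 1 symbol, 18 several and 10378 none. Genotype came from the labels, which number each mouse; replicate numbers follow accession order and pair nothing. A group is called below background where no array had a detection p under 0.01. The text names all member probes, the 4 genes with the largest KO minus WT difference in each list of T cell genes or partners, the 3 brightest tested genes in each list of another cell type, undetected genes that define a type, and the 10 genes most like the members. A gene with several probes is represented by the brightest. The members and the lists were chosen with earlier results of these data known, and the promoter motifs after the data were seen. The 29 alternatives covered background, offset, normalization, filter, slide, day, array weights, samples in the model, probe choice, each replicate left out and, chosen after seeing the data, 2 sets of 3 arrays left out.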

Additional observations from a re-analysis of the deposited data

Results flagged for a closer look

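Of 124 groups of 4 arrays examined (62 probes in WT and in KO), 5 held an array set apart from the other 3 by Dixon's criterion, and about 1 in 20 groups are so marked by chance. WT 3 read 9.10 for Cd52 ILMN_2910934 against 9.02 to 9.03 in the other WT arrays, a small gap within a tight group. KO 4 read 5.37 for Grap2 against 5.08 to 5.13, KO 3 read 6.55 for Ltbr against 7.12 to 7.19, and KO 1 read 5.82 for S100a8 against 4.99 to 5.11 in the other KO arrays. WT 4 read 8.09 for Adipoq against 9.21 to 9.41 in the other WT arrays.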

How the results depend on the processing

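Over the 29 alternatives KO minus WT kept its sign for both Cd52 probes, Cd3d, Cd3g and the dimmer Cd3e probe wherever they were tested. For Cd52 ILMN_2910934 it ran from -1.29 to -0.72 (limma adjusted p from 0.00660 to 0.898), for the second Cd52 probe from -1.72 to -0.75 (0.125 to 0.898) and for Cd3d from -0.63 to -0.26 (0.0565 to 0.898). The number of member probes past the threshold went from 0 to 1, Cd52 ILMN_2910934, in KO against WT without KO 3 and without the 3 arrays lowest in haemoglobin markers, and for the slope also with offset 50 and with array weights; leaving out 1 replicate at a time it ran from 0 to 1 in both. It stayed at 0 in the alternatives of Het against WT and KO against Het. The median over the 6 genes, -0.26, was -0.12 without background correction, with offset 50 and with the authors' intensities, and ran from -0.31 to -0.20 with 1 replicate left out. A median shift per array moved the median KO minus WT difference of all tested probes to 0.11.

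Small differences changed sign under some alternatives, in KO minus WT unless named; the causes were not tested. Without background correction, Cox8b was 0.0297. With offset 50, Cox8b was 0.0183. With a median shift per array, Thy1 was 0.0408, Ltbr was 0.13, Ltf was 0.0103, Cox8b was 0.15 and Slc34a1 was -0.0188. With the authors' intensities, Cox8b was 0.0297. On slide 1, Nfkb2 was -0.0532, Ltbr was 0.14, Kap was 0.016, Cd3e ILMN_1238847 was -0.0275 in KO minus Het and Cd3g was 0.0342 in KO minus Het. On slide 2, Bcl11b was 0.33, Tnfrsf1a was -0.26, Jchain was -0.00525, Cox8b was 0.21 and Cd3e ILMN_2784580 was -0.0286 in Het minus WT. With day in the model, Cox8b was 0.12. With day and slide together, Tnfrsf1a was -0.0478, Cox8b was 0.38 and Cd3e ILMN_2784580 was -0.00208 in Het minus WT. On day 58 alone, Bcl11b was 0.23 and Tnfrsf1a was -0.12. With array weights, Ltbr was 0.0186, Cox8b was 0.27 and Cd3e ILMN_1238847 was -0.0461 in KO minus Het. With the mean of all tested probes of a gene in place of its brightest probe, Cd8b1 was -0.23, and the mean of both Cd3e probes was -0.12 in Het minus WT. Without the 3 arrays highest in adipose markers, Cd3e ILMN_2784580 was 0.0265, Bcl11b was 0.0605, Adipoq was -0.56, Cd3e ILMN_1238847 was -0.00922 in KO minus Het and Cd3e ILMN_2784580 was 0.0278 per allele. Without the 3 arrays lowest in haemoglobin markers, Tnfrsf1a was -0.13, Ltbr was 0.15, Jchain was -0.00171, Hba-a1 was 0.10 and Cox8b was 1.09. With 1 replicate left out at a time, Thy1 ran from -0.13 to 0.0482, Ltbr from -0.0957 to 0.13, Jchain from -0.0237 to 0.12, Cox8b from -0.53 to 0.53, Tnfrsf1a from -0.0480 to 0.16, and Cd3e ILMN_1238847 in KO minus Het from -0.0746 to 0.11. No paired analysis was possible because the replicate numbers follow accession order and the labels name no shared litter.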
